A study of Homo sapiens with 8 samples.

Results

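Broad accessible regions were 275 stretches of DNA. In each, the peak list of every one of the 4 control libraries held at least 1 peak of 1500 bp or more. The peaks of the 4 lists were merged where they shared 1 bp, which gave 43654 regions, of which 22398 were overlapped by a peak of every list. The 275 members were chosen by the width of these peaks and were 1.23% of those 22398 (95% Wilson interval 1.09 to 1.38). Of the members, 270 lay on chromosomes 1 to 22, X and Y, and the other 5 lay on the mitochondrial chromosome or on unplaced contigs, so that comparisons with genes and sequence refer to the 270. Peak width was used for the choice and is therefore described without a test.

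The study asked how chromatin of erythroid precursors responds to Kit, the receptor tyrosine kinase that binds stem cell factor (SCF). HUDEP-2 cells, an established human erythroid precursor line that was expanded with SCF, erythropoietin, dexamethasone and doxycycline, were assayed by ATAC-seq, in which the transposase Tn5 cuts accessible DNA. The cells carried a scrambled control guide RNA (sgControl), delivered by lentivirus for CRISPR interference with a KRAB-dCas9 construct and sorted on its fluorescent marker, and all were starved for 5 h in serum-free medium with albumin before 1 h with PBS (2 libraries) or with SCF at 50 ng/ml (2 libraries). About 50000 cells went into each library, replicates were called biological duplicates, and samples with a guide against EGR1 were not analysed here.

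Nucleosomes wrap most of the genome, and active promoters carry a short nucleosome-free stretch just before the start site of transcription. Stretches that stay open over a length of several nucleosomes are known at highly transcribed genes, CpG-rich promoters, bidirectional promoters and clusters of very active small genes such as the replication-dependent histone genes and the transfer RNA genes. In erythroid cells, GATA factors act mainly through enhancers away from promoters, whereas EGR1 is an immediate early gene that growth factor receptors switch on within minutes through serum response elements in its promoter.

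The sequences below show windows of histone promoters with and without CCAAT boxes, members with transfer RNA promoter words, and the EGR1 promoter. The first set gives the broadest histone member of chromosome 6, then 3 histone members with 3 or 4 CCAAT boxes in the window. The CCAAT box is the word CCAAT on either strand, bound by the factor NF-Y. Last comes a histone member whose window does not hold the word. Each shows 201 bases of the reference plus strand (GRCh37, the same coordinates as hg19) around the highest summit, and capitals mark CCAAT or its complement ATTGG.
H1-5/H2AC16 (chr6:27832983-27833183): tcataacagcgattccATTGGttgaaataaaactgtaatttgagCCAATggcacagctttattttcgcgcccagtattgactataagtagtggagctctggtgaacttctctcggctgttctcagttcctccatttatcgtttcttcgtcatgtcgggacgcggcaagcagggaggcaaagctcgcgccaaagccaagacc
H2AC11/H2BC11 (chr6:27100566-27100766): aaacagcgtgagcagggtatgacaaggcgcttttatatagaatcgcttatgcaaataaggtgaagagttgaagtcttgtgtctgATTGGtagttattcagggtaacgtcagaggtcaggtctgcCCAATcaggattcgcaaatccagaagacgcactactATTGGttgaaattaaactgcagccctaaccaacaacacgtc
H2AC14/H2BC14 (chr6:27782490-27782690): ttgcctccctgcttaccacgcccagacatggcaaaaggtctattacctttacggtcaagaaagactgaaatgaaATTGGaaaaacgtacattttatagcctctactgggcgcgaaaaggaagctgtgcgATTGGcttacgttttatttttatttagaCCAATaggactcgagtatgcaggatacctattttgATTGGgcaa
H1-4/H2BC5 (chr6:26158169-26158369): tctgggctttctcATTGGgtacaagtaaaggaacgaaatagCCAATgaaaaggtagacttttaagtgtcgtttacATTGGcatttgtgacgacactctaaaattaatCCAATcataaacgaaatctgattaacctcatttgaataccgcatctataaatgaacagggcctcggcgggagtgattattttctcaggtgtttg
H4C5 (chr6:26204723-26204923): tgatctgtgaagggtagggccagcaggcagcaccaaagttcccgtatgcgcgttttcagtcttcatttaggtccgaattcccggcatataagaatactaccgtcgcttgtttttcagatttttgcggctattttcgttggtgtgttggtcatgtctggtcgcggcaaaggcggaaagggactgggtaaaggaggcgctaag

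The second set gives members that lay away from annotated start sites and held the B box, the internal promoter word of transfer RNA genes (GGTTCGA, any 2 bases and CC, on either strand). The windows of 96 bases are printed on the strand on which the word reads in this direction, and capitals mark the word.
KCTD2 intron, word 1 (chr17:73029992-73030087, plus strand): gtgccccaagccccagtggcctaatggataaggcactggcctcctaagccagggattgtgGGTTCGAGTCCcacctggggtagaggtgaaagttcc
KCTD2 intron, word 2 (chr17:73030512-73030607, minus strand): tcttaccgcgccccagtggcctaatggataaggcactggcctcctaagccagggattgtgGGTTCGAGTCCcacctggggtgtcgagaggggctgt
KCTD2 intron, word 3 (chr17:73031199-73031294, plus strand): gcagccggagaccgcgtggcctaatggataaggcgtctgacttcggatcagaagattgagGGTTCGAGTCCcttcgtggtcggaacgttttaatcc
intergenic region of chromosome 12 (chr12:125424179-125424274, minus strand): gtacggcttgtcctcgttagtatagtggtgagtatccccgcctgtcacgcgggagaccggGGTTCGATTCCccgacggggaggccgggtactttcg

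The third sequence is the upstream stretch of the EGR1 promoter. Capitals mark serum response elements, the sites of serum response factor.
EGR1 (chr5:137800730-137800833, plus strand): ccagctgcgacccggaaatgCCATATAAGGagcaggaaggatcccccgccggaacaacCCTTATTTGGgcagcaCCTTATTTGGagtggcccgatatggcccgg

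Of the 10 nuclear members with the largest mean width, 4 were histone regions, 4 were other promoters and 2 had their highest summit over 1 kb from a start site. Over the 270 nuclear members, the median width of the widest peak was 1714.5 bp in PBS replicate 1, 1778 bp in PBS replicate 2, 1688.5 bp in SCF replicate 1 and 1729 bp in SCF replicate 2. The distribution was compressed against the limit, since the mean width over the 4 libraries had a median of 1735 bp and quartiles of 1646 and 1893 bp. Members took up 2.26% to 2.60% of the bases covered by each list although they held 0.827% to 0.950% of its peaks.

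**Figure D1:**
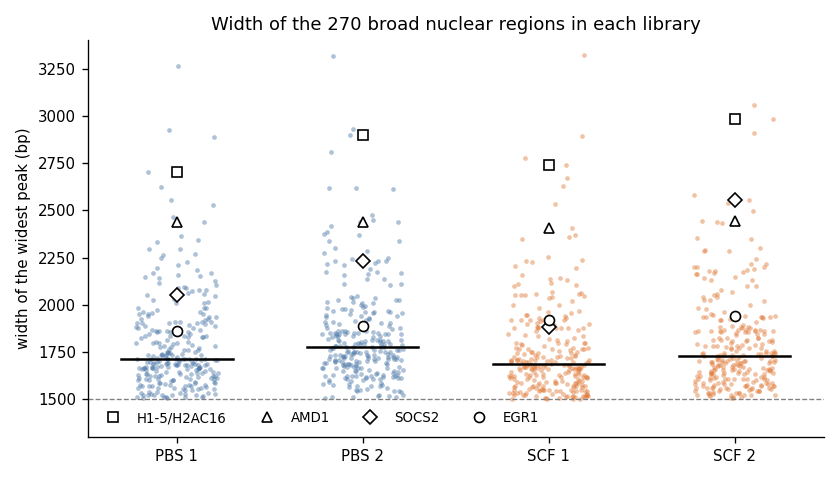
Width in bp of the widest peak of each of the 270 nuclear broad regions (points) in the 4 libraries, with the median of each library as a black bar and the 1500 bp limit as a dashed line. The medians lie between 1688.5 and 1778 bp, and open markers give 4 named members, of which SOCS2 varies most between libraries.

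The broadest nuclear member, chr1:149856927-149860315, covered the start sites of the histone genes H2AC20, H2AC21 and H2BC21 and of BOLA1, a mitochondrial iron-sulfur protein. Its widest peak measured 3266 and 3316 bp with PBS and 3320 and 1935 bp with SCF. The list of SCF replicate 2 held 2 peaks there and every other list 1, so 1935 bp is the wider of 2 parts. At H1-5 and H2AC16, which encode a linker histone and a histone H2A, the widths were 2703 and 2897 bp with PBS and 2739 and 2982 bp with SCF. H3C11/H4C13, a pair of histone genes nearby on chromosome 6, spanned 2526 and 2613 bp with PBS and 2627 and 2580 bp with SCF. H1-2, another linker histone gene, gave 2365 and 2419 bp with PBS and 2231 and 2433 bp with SCF. In each of these 3 regions of chromosome 6 the widths of the treatments overlapped.

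Among the 10 broadest nuclear members, 6 were not histone regions. AMD1, which encodes the decarboxylase that supplies polyamine synthesis, had the most even widths of this group at 2438 and 2440 bp with PBS and 2406 and 2446 bp with SCF. The region shared by ENO3, a muscle-type enolase, and PFN1, the actin-binding protein profilin, measured 2623 and 2617 bp with PBS and 2670 and 2283 bp with SCF. At PRPSAP1/SPHK1, the latter being a sphingosine kinase, the widest peak measured 2925 and 1855 bp with PBS and 1817 and 3058 bp with SCF. The lists of PBS replicate 2 and SCF replicate 1 held 2 peaks there, and the other lists 1 each. EVA1C had widths from 1981 to 2808 bp, both limits being PBS libraries. The other 2 of the group had their highest summit away from start sites and are given further on.

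At the other end, NADK2, the mitochondrial NAD kinase, was just inside the limit, with 1554 and 1505 bp for PBS and 1500 and 1508 bp for SCF. SEPTIN7, a septin of the cytoskeleton, also reached 1500 bp in its narrowest library, and C19orf81 reached 1502 bp. Just outside were ZMYND11, a chromatin reader with 1498 bp in PBS replicate 1 and up to 2044 bp in the others, NR2C2, a nuclear receptor with 1498 bp in SCF replicate 2, and RNVU1-18, a variant U1 small nuclear RNA gene with 1496 bp in SCF replicate 1. The limit therefore cut through a continuous distribution. A peak of at least 1500 bp was present in 1 list only at 572 regions, in 2 lists at 293, in 3 lists at 196 and in all 4 at 275, so that members were 20.6% (18.5 to 22.8) of the 1336 regions that reached the limit anywhere.

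Of the 270 nuclear members, 249 (92.2%, 95% Wilson interval 88.4 to 94.9) had their highest summit within 1 kb of an annotated start site, compared with 13001 of the 22085 other regions called in all 4 lists (58.9%, 58.2 to 59.5). Regions of a genome are not replicates, so the intervals cover counting error only and no test was made. For protein-coding start sites the shares were 88.1% and 52.5%. The highest summit of promoter members lay a median of 88 bp from the nearest start site, against 80 bp at other promoter regions. The promoter share was 31.6% among regions whose narrowest width was below 500 bp and 88.2% between 750 and 1000 bp, beyond which it stayed between 92.0% and 92.7%. The shares of regions between 1000 and 1500 bp lay inside the interval of the members.

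Height followed another course. Fold enrichment, the authors' ratio of the pileup at a summit to the local background, was turned into a percentile rank within each list. The median rank was 42.0 for regions under 500 bp, reached 82.3 between 750 and 1000 bp, and was 61.6 for the members. The number of fragments stacked at the summit, recovered from the deposited values, nevertheless had a median of 105, 137, 94 and 91 in members (PBS 1, PBS 2, SCF 1, SCF 2; recovered for 270, 265, 269 and 270 members) and of 34, 46, 33 and 33 in other regions. The local background at the summit was 10 to 10.7 times the lowest background of the library in members and 2.91 to 3.28 times in others. Members were therefore tall in fragments, stood on a raised background and had a middle rank of fold enrichment. The median local background rose with width, from 1.59 under 500 bp through 5.14 between 750 and 1000 bp to 10.2 in members. Fold enrichment divides by this background, so both are tied to the width that chose the members. The part of width in them was not tested.

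**Figure D2:**
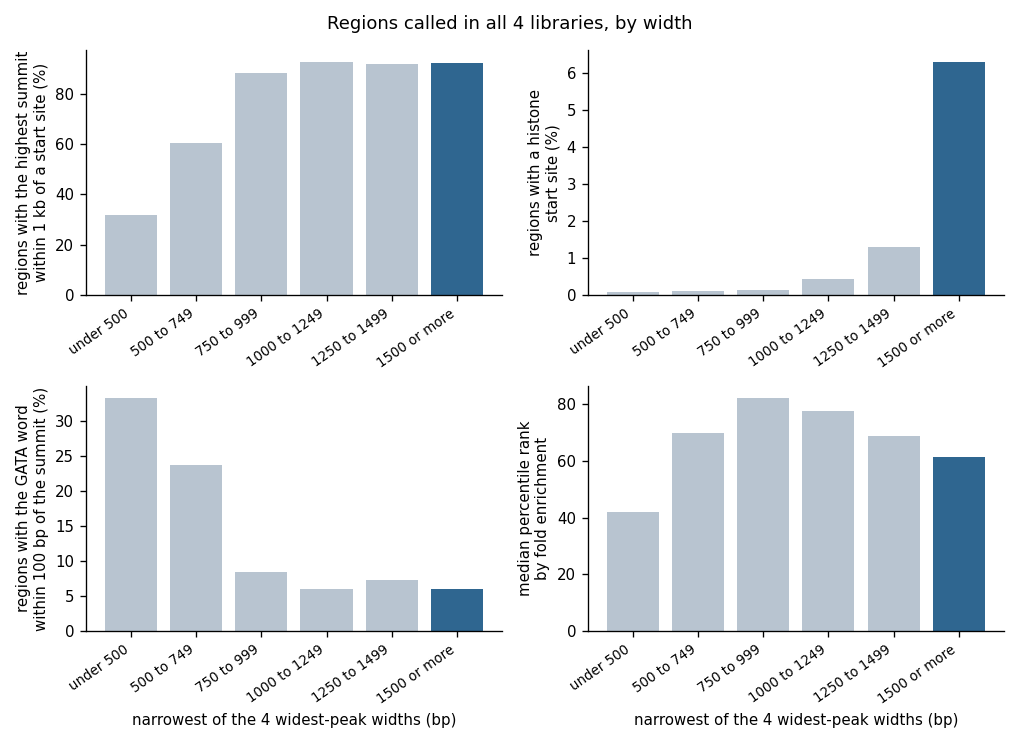
Regions called in all 4 libraries on chromosomes 1 to 22, X and Y, grouped by the narrowest of their 4 widths in bp (270 in the last class): share with the highest summit within 1 kb of a start site, share with a histone start site, share with the GATA word within 100 bp of the summit, and median percentile rank by fold enrichment. Promoter share levels off near 92%, histone share rises to 6.30%, GATA share falls to 5.93% and rank peaks at 82.3 between 750 and 1000 bp.

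In 262 of the 270 members (97.0%) each list held 1 unbroken peak, a share close to that of other regions (96.1%). The summits of the 4 lists lay within a median of 106 bp of each other in members and 111 bp in others. A range over 300 bp was nevertheless found in 28.9% (23.8 to 34.6) of members and 11.4% of other regions, although as a percent of the mean width the median range was smaller in members (5.99%) than in others (16.5%).

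At promoters with coding start sites on 1 strand, the widest peak of members (n = 176) reached a median of 709 bp upstream and 1027 bp downstream of the start site. In the other promoter regions (n = 9187) the reach was nearly even, at 412 bp and 431 bp. The peak extended over 1000 bp downstream of the start site, which at short genes is past the gene end, in 53.4% (46.0 to 60.6) of members. It extended over 1000 bp upstream in 32.4% (25.9 to 39.6). Since the members were selected on the sum of both sides, only the balance is informative, and 62.5% (55.2 to 69.3) of members reached further downstream than upstream, compared with 53.4% (52.4 to 54.4) of the others. The reach was uneven in both directions. H3C11/H4C13 reached 2251 bp downstream and 335 bp upstream of its reference start site, and AMD1 reached 1876 bp downstream and 555 bp upstream. NFE2L2, the oxidative stress regulator, reached 1709 bp upstream and 313 bp downstream, and PTMA, the prothymosin alpha gene, reached 1881 bp upstream and 287 bp downstream. PTMA was named after its values were seen.

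**Figure D3:**
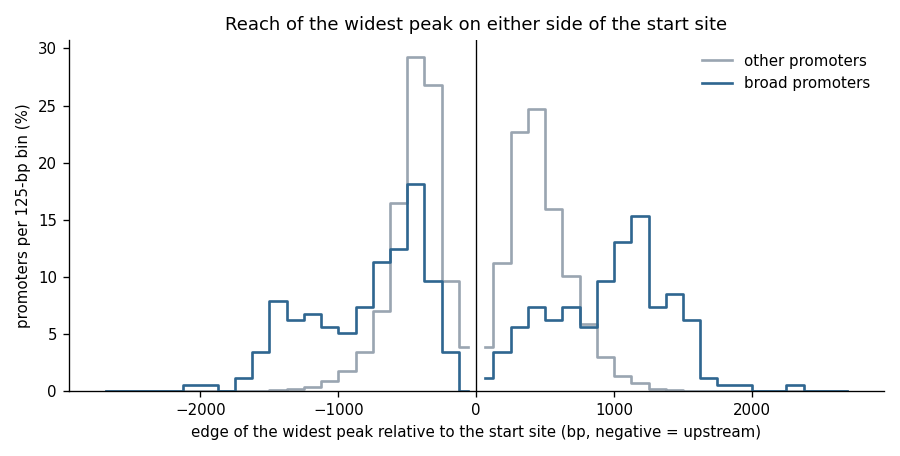
Distance in bp from the start site to the upstream edge (negative) and to the downstream edge (positive) of the widest peak, averaged over the 4 libraries, as percent of promoters per 125-bp bin for 176 broad and 9187 other promoters with coding start sites on 1 strand. The downstream edges of broad promoters are most frequent in the bin from 1125 bp (15.3%) and their upstream edges in the bin from 375 bp (18.2%), with others spread beyond 1000 bp. Selection on the sum of both sides ties the upstream and downstream reach of broad promoters to each other.

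Start sites of 2 or more protein-coding genes lay within 1 kb of 69 members (25.6%, 20.7 to 31.1) and of 8.58% of other regions. Coding start sites on both strands were found at 59 members (21.9%, 17.3 to 27.2) and at 6.80% of others. A start site of a non-coding gene was found at 38.9% and 20.5%. The search window grew with the region, so that part of these differences follows from the length that chose the members, and how large that part is was not tested. Examples among the named members were PRPSAP1/SPHK1, ENO3/PFN1, BAD/GPR137 and HCFC1/TMEM187, the last of which pairs a cell-cycle coregulator of transcription with a membrane protein gene.

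Of the 12 gene lists examined, histone genes had the largest share of broad regions. Of 64 histone genes with a region called in all 4 lists, 29 (45.3%) had a broad one, compared with 323 of 12223 protein-coding genes (2.64%). The 29 genes shared 17 regions, 14 of them on chromosome 6, and these were 6.30% (3.97 to 9.85) of members against 0.154% of other regions. The share of regions with a histone start site rose with width, from 0.0713% below 500 bp through 0.423% from 1000 to 1249 bp and 1.299% from there to the limit. The histone members were also broader than the rest, with a median mean width of 2033 bp against 1712.5 bp, and included H2AC11/H2BC11, H2AC12/H2BC12, H2AC15/H2BC15, H2AC8, H3C1/H4C1 and H4C5. Coding sequences of histone paralogs are near-identical, so reads there may have been assigned to the wrong copy, and the values of single histone regions are uncertain in this respect.

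Histone genes are short and mostly lack introns. Of the 29 with a broad region, 20 (69.0%) lay wholly inside an accessible region called in all 4 lists, from start to end. Among the 294 other coding genes with a broad region this was the case for 1 (0.340%), MIF, a cytokine gene of 845 bp that was named after its values were seen. Median gene length was 508 bp for the first group and 31153 bp for the second. Histone genes outside the broad set had the same typical length (510 bp) and 17 of 35 (48.6%) of them lay wholly inside a region. A typical case is H2AC16, 482 bp long at chr6:27833095-27833576, which lies inside the region of H1-5/H2AC16.

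**Figure D4:**
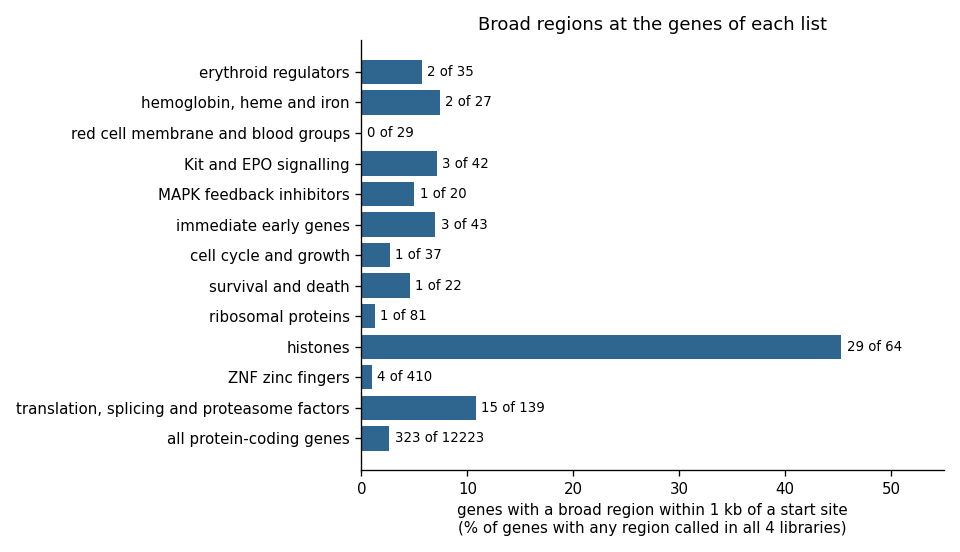
Share of the genes of each list that had a broad region within 1 kb of a start site, in percent of the genes of the list with any region called in all 4 libraries; the fraction beside each bar gives the counts. Histones reach 45.3%, and all protein-coding genes together 2.64%.

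Summits of histone members differed in composition from those of the other members. Their median GC content within 100 bp of the summit was 49.8%, against 65.7% over all members, and 9 of 17 (52.9%, 31.0 to 73.8) held a CCAAT box there. Over all members the CCAAT box was found in 27.4% (22.4 to 33.0), an interval that contained the 22.6% of other regions. In 1501 bp around the middle of the region, the shares of all members and of other regions were 76.7% (71.3 to 81.3) and 78.7%. Histone members were not counted separately in that longer window. H1-4/H2BC5 and H2AC14/H2BC14, a linker histone gene paired with an H2B gene and an H2A gene paired with an H2B gene, each held 4 words in the windows printed above. H2AC11/H2BC11 held 3 and H1-5/H2AC16 held 2, while none was present in the window of H4C5, a histone H4 gene. No match says only that these letters are not in this window. The whole region of H4C5 held 4 words.

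Genes of translation and splicing followed at a distance. Of 139 genes in a list of translation, splicing and proteasome factors, 15 (10.8%) had a broad region, in 13 regions. They included EIF4E, the cap-binding factor, EIF4A1, its helicase partner, EIF5B, EEF1A1, the elongation factor that delivers transfer RNA to the ribosome, SRSF2 and the heterogeneous nuclear ribonucleoproteins HNRNPA1, HNRNPA2B1, HNRNPF, HNRNPH1, HNRNPK and HNRNPL. The name pattern of the list also took in EEF1AKMT4, a methyltransferase, and readthrough genes. The broadest of them was the region shared by HNRNPA2B1 and CBX3, with 2074 and 1900 bp for PBS and 1772 and 2050 bp for SCF. EIF4E had 1679 and 1702 bp with PBS and 1706 and 1695 bp with SCF, so that its 4 libraries were nearly equal. Ribosomal protein genes, by contrast, had 1 of 81 (1.23%), RPL7, and zinc finger genes named ZNF had 4 of 410 (0.976%), at ZNF850, ZNF575 and the shared region of ZNF646 and ZNF668.

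In the lists tied to the erythroid lineage and to Kit, 0% to 7.41% of the genes had a broad region, each share resting on at most 3 genes, against the 2.64% of all protein-coding genes. Of 35 erythroid regulators with a region in all 4 lists, 2 (5.71%) had a broad one, FOXO3 and NFE2L2. FOXO3, a forkhead factor that promotes erythroid maturation, measured 1884 and 1927 bp with PBS and 1919 and 1907 bp with SCF. NFE2L2 measured 2093 and 2007 bp with PBS and 1967 and 2024 bp with SCF. In the list of hemoglobin, heme and iron genes there were 2 of 27 (7.41%), UROD, a heme synthesis enzyme, and SLC25A37, the mitochondrial iron importer of erythroid cells. Genes of the red cell membrane and blood groups had 0 of 29. None of the 11 erythroid markers fixed for the cell type check had a broad region, although 8 of them, including GATA1, KLF1, TAL1, EPOR, SLC4A1, KIT and TFRC, had a region in all 4 lists and ALAS2, HBG1 and HBG2 had none. Of the markers of other cell types, 2 of 4 for B cells, 1 of 4 for T cells, 2 of 5 for myeloid cells, 1 of 5 for megakaryocytes and 1 of 4 for other tissues had a region in all 4 lists, and 0 a broad one.

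Of 42 genes of Kit and erythropoietin signalling, 3 (7.14%) had a broad region. SOCS2, an inhibitor of cytokine signalling, had the broadest with 2052 and 2231 bp for PBS and 1883 and 2553 bp for SCF, and both extremes were SCF libraries. SOCS1, an inhibitor of the same family, had 1556 and 1811 bp with PBS and 1545 and 1577 bp with SCF, and the adaptor gene SHC1 shared a region with CKS1B. Of 20 feedback inhibitors of MAP kinases 1 (5%) had a broad region, DUSP10, a phosphatase of stress kinases, with 1736 and 1763 bp for PBS and 1684 and 1513 bp for SCF. Beside the 2.64% of all protein-coding genes, cell cycle and growth genes had 1 of 37 (2.70%), CCNE2, a cyclin E, and survival and death genes had 1 of 22 (4.55%), BAD, a proapoptotic BCL2 family member.

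Immediate early genes had 3 of 43 (6.98%), namely EGR1, the antiproliferative gene BTG2 and PPP1R15A, a phosphatase subunit of the stress response. The EGR1 region, chr5:137799697-137801738, had widths of 1861 and 1888 bp with PBS and 1920 and 1941 bp with SCF. Both SCF values were above both PBS values, with means of 1874.5 ± 19.1 bp and 1930.5 ± 14.8 bp (PBS and SCF, SD, n = 2 each). By fold enrichment its ranks were 69.6 and 73.2 with PBS and 73.2 and 74.7 with SCF, which overlapped. The summit held 252 and 346 fragments with PBS and 247 and 239 with SCF, without scaling for depth. Divided by the lowest background of each library, which differed between libraries as given further on, the values were 241 and 231 with PBS and 262 and 270 with SCF, so that both SCF libraries were then the higher ones. The upper quartiles over members on this scale were 146, 129, 145 and 144 in the same order. The medians over members were 100.4 and 91.33 with PBS and 99.62 and 102.8 with SCF, which overlapped. Over the other regions the medians were 32.51 and 30.66 with PBS and 34.97 and 37.28 with SCF. Both SCF libraries were thus also the higher ones over those regions. Whether the values of EGR1 exceeded this shift between libraries was not tested. The widest peak reached 1398 bp upstream and 503.5 bp downstream of the start site on average.

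The EGR1 region held 5 serum response element words, at 418, 380, 364, 105 and 83 bp upstream of the start site, the first 3 of which are the capitals in the sequence printed above. In a window of 1501 bp around the middle of each region, which runs past the edges of narrower regions, 5 words were found in 1 of 270 members, which is EGR1, and in 0 of the 22085 other regions. At least 1 word was present in 5.19% (3.11 to 8.51) of members and 6.59% (6.27 to 6.93) of other regions, so members as a group did not hold more of them. BTG2 had widths of 1768 and 1667 bp with PBS and 1717 and 1657 bp with SCF, and PPP1R15A had 1617 and 1612 bp with PBS and 1707 and 1682 bp with SCF.

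The sequence around the summits of members was that of CpG-rich promoters. Median GC content within 100 bp of the highest summit was 65.7% in members and 61.2% in other regions, and the ratio of observed to expected CpG was 0.857 and 0.638. Restricted to promoter regions, GC content was 65.7% and 67.2% and the CpG ratio 0.872 and 0.833, so that GC content was no higher in members once promoters were set against promoters. The GATA word, AGATAA or TGATAA on either strand, occurred in 5.93% (3.68 to 9.41) of members and 22.1% (21.6 to 22.7) of others, and among promoter regions in 5.22% and 7.29%. Away from start sites it occurred in 14.3% (4.98 to 34.6) of 21 members and 43.3% of others. For AP-1 (TGANTCA, either strand) the shares were 2.59% and 6.82%, 2.81% and 3.15% at promoters, and 0% (0 to 15.5) and 12.1% away from start sites. The EGR word (GCGTGGG, either strand) was found in 7.41% (4.85 to 11.2) and 5.11%, with 7.63% and 6.84% at promoters. Away from start sites the EGR shares were 4.76% (0.846 to 22.7) and 2.63%. TGACGTCA, the cAMP response element, was found in 1.11% and 1.15%, and the E-box CACGTG in 4.07% and 5.39%. Within 100 bp of the summit, the member share of each of these words at promoters had an interval that contained the share of the other promoters. In the window of 1501 bp, in which only the GATA word of this group was counted, it occurred in 34.9% (29.3 to 41.0) of member promoters and 49.1% of the others, so the interval lay below. Away from start sites its shares in this window were 52.4% (32.4 to 71.7) and 80.8%. This window runs past the edges of narrower regions into their flanks, so the comparison is tied to the width that chose the members. The part of width in the difference was not tested. A match to letters is a description and not a bound site.

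The 21 nuclear members away from start sites, meaning that their highest summit lay over 1 kb from each, comprised 5 with this summit in an exon, 9 in an intron and 7 between genes. This refers to the summit only, and some of these regions, such as those of MFSD2B and SPEN, themselves covered a start site. When any base of the region counted, 95.2% of members lay within 1 kb of a start site. The broadest was an intergenic region on chromosome 6, chr6:58776489-58779420, with 2888 and 2932 bp for PBS and 2891 and 2907 bp for SCF. It lay 65204 bp from the nearest start site and 746 bp from a gap of the assembly, and its GC content was 39.7%. At its summit the local background was 128.1 (PBS 1), 111.5 (SCF 1) and 117.8 (SCF 2) times the lowest background of the library. The medians over members were 10.21, 10.52 and 10.71 in the same libraries. In PBS 2 the pileup of this region was not recovered. The cause of its high background was not tested. Among members, 1 of 270 (0.370%) lay within 10 kb of an assembly gap, as did 0.213% of other regions. LINC00324, a long non-coding RNA gene of chromosome 17, followed with 2553 and 2616 bp for PBS and 2536 and 2440 bp for SCF, and then an intergenic region, chr1:51442405-51444945, with 2464 and 2248 bp for PBS and 2140 and 2144 bp for SCF. MFSD2B, which encodes a sphingosine 1-phosphate transporter of red blood cells, had its summit in an intron 1241 bp from a start site and widths of 2063 and 2035 bp with PBS and 2069 and 1931 bp with SCF. The region near SPEN, a transcriptional repressor gene, had its summit 1338 bp from the nearest start site, in an exon of the antisense gene SPEN-AS1, with widths from 1922 to 1985 bp.

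Several of these regions held B boxes. In the 1501 bp around the middle of the region, 4 of 21 members away from start sites (19.05%, 95% interval 7.67 to 40.0) held at least 1 and 3 (14.3%) held at least 2, compared with 1.32% and 0.198% of the 9084 other regions away from start sites. Over all nuclear members the shares were 5.56% (3.40 to 8.96) and 1.85%, against 1.52% and 0.149%. A KCTD2 intron, chr17:73029738-73031455, held 3 on both strands, and the first pair of windows printed for it, on opposite strands, shared an unbroken run of 72 bases. LINC00324 held 2, an intergenic region of chromosome 1 held 2 and the intergenic region of chromosome 12 held 1. The KCTD2 region had even widths of 1677 and 1717 bp with PBS and 1702 and 1670 bp with SCF. Transfer RNA genes were not part of the annotation used, and the regions with several B boxes were named after their values were seen.

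The other 5 members lay outside the annotated chromosomes. The mitochondrial chromosome held 2, with widths of 4514 and 6516 bp (PBS) and 6508 and 4510 bp (SCF) for the first and 3840, 3833, 3831 and 3836 bp for the second. Their fold enrichment was 1.59 to 1.62 and 2.88 to 3.07, and the mean rank of the first was 0.0139 with PBS, at the foot of the lists. The other 3 lay on unplaced or unlocalized contigs, with widths from 1634 to 3327 bp.

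The number of wide peaks differed between libraries. Peaks of at least 1500 bp numbered 736 and 960 with PBS (848 ± 158, SD, n = 2) and 540 and 612 with SCF (576 ± 50.9, n = 2). Both SCF counts were below both PBS counts. Read totals are unknown from peak lists. The lowest background recovered from the values was 1.046 and 1.5001 with PBS and 0.944 and 0.885 with SCF. By this indirect measure both PBS libraries were the deeper ones. Between the SCF libraries the order differed, as replicate 2 had the lower background and the larger number of wide peaks. The part of depth in the difference was not tested.

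The median difference of mean widths, SCF minus PBS, was -27.3 bp over members and -40 bp over all 22355 nuclear regions, and the measured width of a member differed by a median of 76 bp between a PBS and an SCF library, 75.5 bp between the PBS libraries and 67 bp between the SCF libraries. Both SCF widths were below both PBS widths at 72 members (26.7%), where the background over all regions was 27.1%, and above at 12 (4.44%), where the background was 8.85%. Since width chose the members, nothing is read from these counts. PBS replicate 2, the deepest library by the recovered background, held the widest peak at 45.9% of members and 42.3% of all regions. The direction depended on the scale. Widths were also divided by each library's median width over the 22355 nuclear regions and rescaled to bp. The median difference was then 88.0 bp in favour of SCF. On this scale 113 members (41.9%) were wider with SCF and 7 (2.59%) narrower, against 20.6% and 14.6% of all regions. A division changes wide regions by more bp than narrow ones, and width chose the members, so nothing is read from these counts either.

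Among members with higher widths in both SCF libraries, the largest ratios were at MIRLET7BHG, the host gene of a let-7 microRNA, with 1902 and 1940 bp against 2775 and 2102 bp, and at TENT5A, a terminal nucleotidyltransferase gene, with 1910 and 1951 bp against 2114 and 2538 bp. In both, 1 SCF library was much wider than the other. At MIRLET7BHG the list of SCF replicate 1 held 1 peak and the other lists 2 each. ATP6V0A1, a subunit of the vacuolar proton pump, FBXO5, an inhibitor of the anaphase-promoting complex, and H4C5 followed, with ratios computed from 1525 to 1573 against 1708 to 1809 bp, 1605 to 1695 against 1790 to 1931 bp, and 1852 to 1919 against 1998 to 2180 bp. In the opposite direction, ELF2, an ETS factor gene, had 2295 and 2384 bp with PBS and 2251 and 1532 bp with SCF, and EZR, the membrane-cytoskeleton linker ezrin, had 2331 and 1628 bp against 1597 and 1612 bp. HCFC1/TMEM187 had 2227 and 2284 bp against 1930 and 1853 bp, H2AC8 had 2271 and 2339 bp against 2109 and 1806 bp, and the small nucleolar RNA host gene SNHG7 had 1902 and 1673 bp against 1512 and 1584 bp. Single libraries therefore set the ratio at ELF2 and EZR, and they differed from the rest in the number of peaks. At ELF2 the list of SCF replicate 2 held 2 peaks and the others 1 each. At EZR the list of PBS replicate 1 held 1 peak and the others 2 each.

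Ranks by fold enrichment were not used to choose the members and were compared between the treatments. Both SCF ranks were above both PBS ranks at 42 members (15.6%, 11.7 to 20.4), where the background over all regions was 16.0%, and below at 58 (21.5%, 17.0 to 26.8), where it was 19.3%. By this measure both intervals contained the background, but they cover counting error over regions only. All regions share the same 4 libraries, so the intervals do not measure the uncertainty of the comparison between treatments. Ranked by −log10 p instead, 34 members (12.6%) were higher with SCF, against 14.4% of all regions, and 73 (27.0%) lower, against 19.9%. Among peaks with −log10 q of at least 5 there were 31 (11.5%, background 14.1%) and 76 (28.1%, background 22.6%), and with the same number of peaks kept per library 48 (17.8%, background 18.2%) and 47 (17.4%, background 17.7%). The excess of lower over higher members therefore depended on the ranking and on the peaks kept. A gap of at least 5 points was present at 5 members upward (1.85%, background 6.05%) and 18 downward (6.67%, background 7.73%). The median rank difference was -0.25 points in members and -0.53 points over all regions. A member's rank differed by a median of 5.12 points between a PBS and an SCF library, 4.32 points between the PBS libraries and 5.19 points between the SCF libraries. In a bulk assay, fewer cells with an open site and less opening in each cell cannot be told apart.

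**Figure D5:**
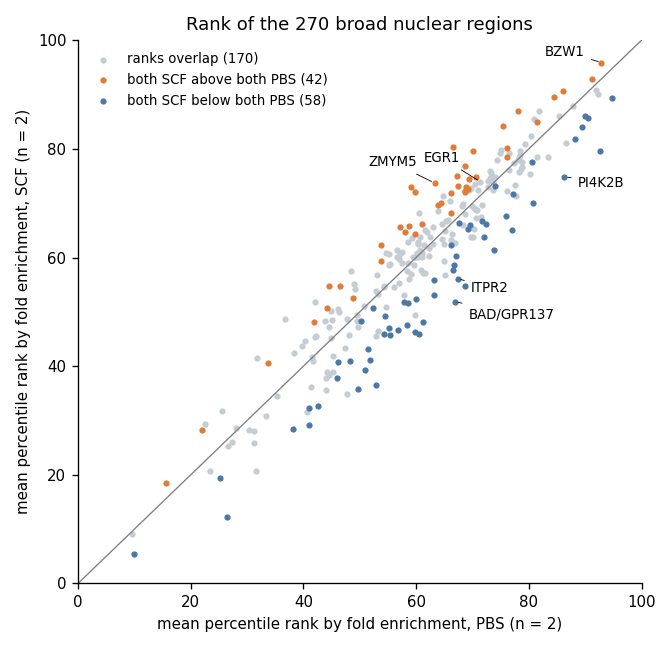
Mean percentile rank by fold enrichment of the 270 nuclear broad regions with PBS (horizontal axis, n = 2) and with SCF (vertical axis, n = 2), on the same scale with the line of equality. Orange marks 42 regions with both SCF ranks above both PBS ranks, blue 58 with both below and grey the 170 that overlap, and EGR1 and BZW1 lie near the line.

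Among the largest gaps upward was ZMYM5, a zinc finger gene, with ranks of 63.1 and 63.5 for PBS and 72.7 and 74.7 for SCF (63.3 ± 0.270 and 73.7 ± 1.42, SD, n = 2 each). CALM2, a calmodulin gene, had 78.7 and 77.3 against 89.5 and 84.4. HMGB2, a chromatin protein gene of dividing cells, had 57.4 and 59.9 against 66.1 and 65.7, and C19orf81 had 73.9 and 77.0 against 83.5 and 84.9. The 5 largest gaps downward were at BAD/GPR137 with 65.9 and 67.8 for PBS against 54.9 and 48.9 for SCF, ARMC6/SUGP2, the latter a splicing-related gene, with 92.1 and 93.1 against 78.2 and 81.2, and ITPR2, an inositol trisphosphate receptor, with 67.3 and 67.4 against 55.7 and 56.5. PI4K2B, a phosphatidylinositol kinase, had 86.1 and 86.5 against 74.2 and 75.6, and RALGPS2, an exchange factor for Ral GTPases, had 57.0 and 62.5 against 46.1 and 46.5. Ranked by −log10 p, the differences of mean rank, SCF minus PBS, were smaller at several of them, from 10.4 to 3.94 points at ZMYM5, 8.97 to 1.77 at CALM2, 7.21 to 2.64 at HMGB2, 8.77 to 2.38 at C19orf81, -12.9 to -3.96 at ARMC6/SUGP2 and -11.4 to -7.18 at PI4K2B. BAD/GPR137, ITPR2 and RALGPS2 changed less, to -12.0, -10.4 and -12.6 points. No test was made for these regions, which were chosen for their gap, and an exact permutation test over 2 against 2 libraries cannot go below p = 0.333. Of the 17 histone members, 1 ranked higher with SCF and 2 ranked lower and their median rank was 45.6 and 49.9 with PBS and 51.9 and 50.1 with SCF.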

How the data were processed

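ATAC-seq peak lists of the 4 sgControl libraries were analysed. The authors processed reads with the ENCODE ATAC-seq pipeline, per the methods of the study, and the submitters' notes name bcl2fastq, Bowtie2 and SAMtools without versions. The methods and notes name hg38, but the series description and the file headers name hg19, and the contig names were those of hg19. The caller is not given in the sources used here. For each peak the deposited lists hold positions, a whole-number score (not used), the fold enrichment as a ratio to local background, and −log10 values of p and q. Each library had its own list.

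Peaks were merged and set against 254413 start sites of GENCODE release 44 lifted to GRCh37, with Python 3.11.15, pandas 2.3.3, SciPy 1.17.1, pysam 0.24.0 and samtools 1.23.1. Ranks were percentiles within a list, and a region took its highest peak. Fragment pileups were recovered where a whole number gave the deposited ratio and −log10 p under a Poisson model (relative tolerance 0.0001), which held for 100% of peaks with −log10 p below 300. Between 16 and 106 peaks per list exceeded that limit. Regions were named by rule: the 10 broadest, 3 on each side of the limit, the 5 broadest away from start sites, 5 per direction by rank gap and by width ratio, and up to 4 genes per list, beside the exceptions stated; 1 region and 1 marker gene are not reported here. Members and gene lists were chosen with earlier results of these data known, and the CCAAT, E-box and B box words and the 1501-bp windows were added after the data were seen. Pileup recovery, merging, membership, the rank comparison and the distance to start sites were tested on simulated peaks, whose pileups did not reach those of the tallest members. The other steps were not tested in this way.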

Additional observations from a re-analysis of the deposited data

How the results depend on the processing

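The number of members and their promoter share depended on definitions more than on any library. With a width limit of 1000 bp there were 2785 broad regions, with 406 ranked higher and 614 lower with SCF, and 78.1% of the histone genes had one. With a limit of 2000 bp there were 26, with a promoter share of 86.4%, a median summit GC content of 61.4%, 2 ranked higher and 7 lower, and 10.9% of the histone genes. The promoter share of 92.2% became 87.4% within 500 bp, 95.6% within 3 kb, 88.1% for protein-coding start sites and 95.2% when any base of the region counted. A rank gap of at least 5 points left 5 members higher and 18 lower, against 6.05% and 7.73% of all regions. The width difference changed sign, from -27.3 to 88.0 bp, when widths were divided by the median width of each library. The rank difference of SNHG7 turned to -0.92 points when ranked by −log10 p. The cause of these changes was not tested, except that a stricter limit keeps fewer regions.

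Leaving out 1 library at a time gave 285 to 346 broad regions, a promoter share of 91.1% to 93.1%, a width difference of -48.5 to -13.3 bp, 85 to 122 members ranked higher and 92 to 144 lower, as fewer ranks then had to be ordered, and -384 to -160 wide peaks for SCF minus PBS. The difference of -272 wide peaks had an exact permutation p = 0.333 and, with the replicate number as a block, an exact sign-flip p = 0.5; each is the smallest p the design can give, so nothing is read from them. The labels give no reason for the pairing beyond the shared number, and the numbers inside the peak names differ from those of the labels. Recomputing the GC content and the histone share for other memberships was added after seeing the data. Depth in reads is unknown, and the width limit was applied without equalising it.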
